A study of Homo sapiens with 6 samples.

Results

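The genes described here are 56 human histone and chromatin modifiers, picked by gene name from an exon annotation of U-87 MG cells. All 56 were listed among 13721 gene names, and all 56 had introns, as did 12462 names in all. They were 12 JmjC lysine demethylases, the flavin demethylase KDM1A, 9 SET lysine methyltransferases, 2 further subunits of Polycomb complex PRC2, the methyltransferase DOT1L, 9 histone deacetylases, ASXL1 and ASXL2, the readers BRD2, BRD3, BPTF and ING3, 4 lysine acetyltransferases, 3 DNA methyltransferases, 4 SWI/SNF genes and 5 CHD remodelers.

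U-87 MG is an established human glioma line, so every library came from 1 line. The study had 2 groups of 3 libraries each, of poly(A)-selected RNA: cells given the vehicle DMSO, and cells given EPZ015666 at 10 uM, both for 72 h. EPZ015666 inhibits PRMT5, an enzyme that methylates arginines of histones and of splicing proteins. The annotation analysed here covered both groups together and had 0 columns of values per library, so nothing below compares DMSO with EPZ015666, and no level, depth or replicate error is attached to any structure.

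Chromatin modifiers write, erase or read chemical marks on histone tails and on DNA, or move nucleosomes with energy from ATP. Many are long proteins in which 1 catalytic domain sits beside small reader domains such as PHD fingers, bromodomains and PWWP domains. Where a transcript stops therefore sets which of these domains it can still encode.

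The annotation describes each isoform as a run of exons. Isoforms of a gene ran along a common upstream chain and differed in where they ended. By its title the annotation lists consensus coding isoforms and entries marked DI, letters the title does not spell out. The counts below therefore describe that list, and whether other isoforms occur in the cells was not tested. No gene in the whole annotation had a skipped internal exon, and 0 of the 56 members had 2 or more first exons, against 0.281% of all genes with introns. The structures below are therefore final exons, told apart by their acceptor (their first base on the gene's strand), and introns lying wholly inside a listed exon. An early final exon is one that ends upstream of at least 1 intron of the gene's chain with most introns. To place it on the protein, intron lengths of that chain were matched to a GENCODE v29 coding transcript, and the residues encoded up to the point of departure were counted. The match was incomplete in many members. It covered 15 of 25 introns in KDM4C, 17 of 26 in WHSC1 and 16 of 21 in ARID1B, against 10 of 10 in HDAC8. Coordinates of listed exons and introns are hg19.

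The catalytic sites shown next are among those that early final exons were placed against. Each is for a member in which an early final exon leaves shortly before or after it, far upstream of it or, in KDM4B, only well downstream of it. They are coding sequences of GENCODE v29 transcripts, 5′ to 3′, with GRCh38 positions, and capitals mark the codons of the active-site motif. In JmjC demethylases these codons hold metal-binding residues, in SET enzymes the asparagine-histidine motif that contacts the methyl donor, in deacetylases the histidine pair of the active site, in CREBBP part of the acetyltransferase core, in DNMT3A the catalytic cysteine and in CHD2 the ATP-binding loop.
KDM4C chr9:6849606-6849695, plus strand, JmjC: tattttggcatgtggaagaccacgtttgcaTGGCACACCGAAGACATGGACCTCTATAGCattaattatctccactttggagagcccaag
KDM4B chr19:5047575-5047664, plus strand, JmjC: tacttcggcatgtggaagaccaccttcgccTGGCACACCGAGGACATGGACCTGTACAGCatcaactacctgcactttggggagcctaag
EHMT1 chr9:137834376-137834456, plus strand, SET: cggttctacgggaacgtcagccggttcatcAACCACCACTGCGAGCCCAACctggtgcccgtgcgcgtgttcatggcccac
NSD1 chr5:177283805-177283885, plus strand, SET: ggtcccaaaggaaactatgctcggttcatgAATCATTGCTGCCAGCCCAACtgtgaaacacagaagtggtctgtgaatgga
WHSC1 chr4:1974881-1974961, plus strand, SET: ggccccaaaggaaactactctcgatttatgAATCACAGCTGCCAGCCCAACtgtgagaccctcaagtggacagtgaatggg
HDAC8 chrX:72567889-72567938, minus strand, deacetylase: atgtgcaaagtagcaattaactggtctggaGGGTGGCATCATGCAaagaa
HDAC2 chr6:113956051-113956125, minus strand, deacetylase: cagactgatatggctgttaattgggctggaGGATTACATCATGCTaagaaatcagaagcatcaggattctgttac
HDAC6 chrX:48808033-48808081, plus strand, first deacetylase domain: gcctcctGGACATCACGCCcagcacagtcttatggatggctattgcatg
CREBBP chr16:3736716-3736799, minus strand, acetyltransferase: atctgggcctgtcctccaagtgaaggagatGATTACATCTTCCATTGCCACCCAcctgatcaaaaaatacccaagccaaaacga
DNMT3A chr2:25240650-25240727, minus strand, methyltransferase: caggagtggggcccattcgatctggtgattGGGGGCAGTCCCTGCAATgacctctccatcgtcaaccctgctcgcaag
CHD2 chr15:92953357-92953432, plus strand, SNF2: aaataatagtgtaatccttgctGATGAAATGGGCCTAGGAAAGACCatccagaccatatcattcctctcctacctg

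The KDM4C and KDM4B stretches matched at 76 of 90 bases and the NSD1 and WHSC1 stretches at 67 of 81, so each pair is read here as paralogues with the same site. The HDAC8, HDAC6 and CHD2 stretches are cut short on 1 side because an exon of the transcript begins or ends there. In these 3 genes an early final exon leaves the chain at that very junction, within a few codons of the active site.

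Of the 56 members, 27 (48.2%) had 2 or more final exons, against 22.5% of all genes with introns. An early final exon was listed for 26 members (46.4%), against 16.7% of all genes. A spanned intron, defined below, was listed for 9 members (16.1%), against 4.18%. These figures keep the later of overlapping listed exons. With the earlier kept, the 9 members became 6, and the matching share of all genes is not given here. The list of members includes genes that an earlier look at this annotation had named, so these shares are a description and not independent evidence. The members also had more introns than most genes, with a median of 24 (9 to 45) against a median of 8 over all genes. Among genes with 9 to 19 introns, 2 or more final exons were listed for 7 of 16 members and 27.3% of all genes. With 20 to 29 introns the figures were 15 of 30 members and 34.2%, and with 30 or more introns 5 of 10 members and 42.5%. The members' share thus stood above that of genes with like intron number by less in the 10 longest chains than in the shorter ones. A spanned intron was listed for 4 of 16 members (25.0%) and 5.17% of all genes with 9 to 19 introns. ASXL1 and BRD2, which had none with the earlier of overlapping exons kept, are among these 4. The shares were 4 of 30 (13.3%) against 8.60% with 20 to 29 introns, and 1 of 10 (10.0%) against 8.85% with 30 or more, so they lay close together in the longest chains. KDM4C, which also had none with the earlier exon kept, is among the 4 with 20 to 29 introns.

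**Figure D1:**
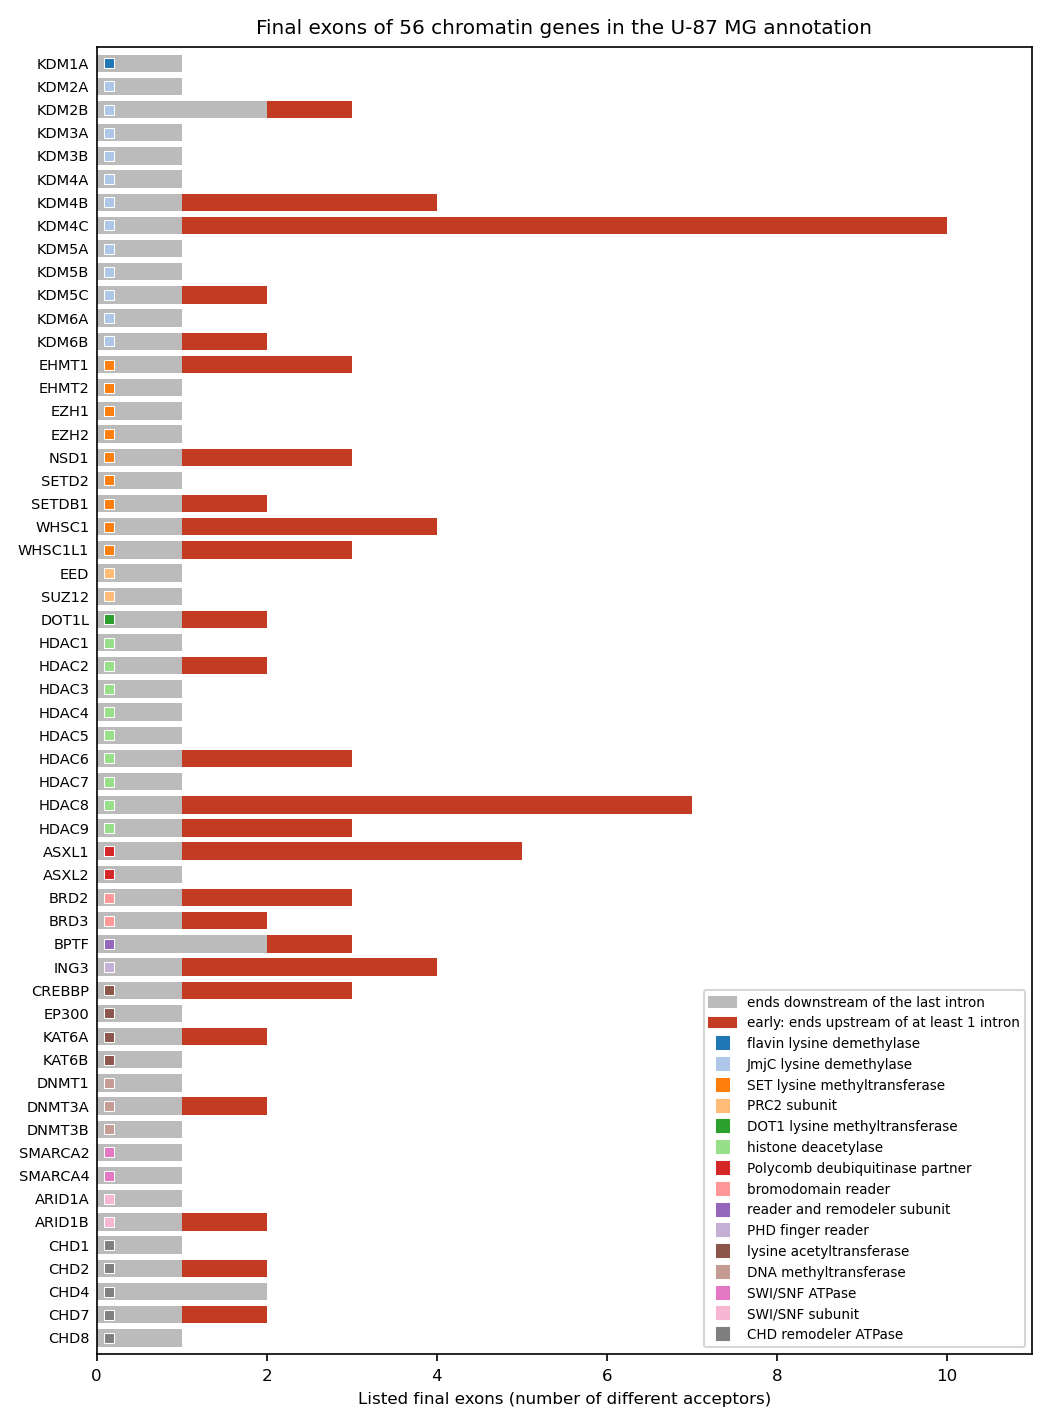
The horizontal axis counts listed final exons (different acceptors) of each of the 56 members, grouped by class (small squares), with early final exons in red and final exons that end downstream of the last intron in grey. KDM4C had 10 final exons, HDAC8 had 7 and ASXL1 had 5, while 29 members had a single grey one.

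Together the 56 members had 114 final exons, of which 55, in 26 members, were early. Most early final exons, 38 of 55 (69.1%), began at the acceptor of an internal exon and ran on past its usual donor into the intron, in BRD3 by only 3 bases. A further 9 (16.4%) were separate exons inside an intron, 4 (7.27%) used another acceptor within an exon, and 4 (7.27%) ended inside an exon of the chain. The last group includes an end in WHSC1L1 at the last base of an internal exon. Over the 3357 early final exons of all genes these shares were 68.1%, 14.0%, 4.56% and 13.4%. The members were thus made up much like the rest, with the greatest gap in ends that lie inside an exon.

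Early final exons were then set against the proteins. Of the 55, 49 could be placed, 48 of them inside the coding sequence and 1, in KDM6B, after the stop codon, and the median placed exit kept 42.0% of the protein. An active-site motif was found in 45 of the 56 members, and 20 of these had placed early final exons, 39 in all. Of the 39, 17 left the chain before the motif, in 11 members, and 22 left after it, in 11 members. In 9 members every placed early final exon left before the motif, in 9 every one left after it, and KDM4C and HDAC9 had both. A later site of the same catalytic domain was also searched for in the JmjC, SET, deacetylase and SNF2 families. Among 19 exits past the active-site motif with such a later site, 11 lay past it as well and 8 did not. Those 8 belonged to HDAC8, HDAC2 and CHD7. A motif that is kept is only 1 point of a domain, and residues read from the intron before a stop codon were not counted. For 32 of the 55 early final exons, GENCODE v29 has a transcript whose last intron has the same length. For 21 of them such a transcript encodes a complete protein. Of the other 11, 8 matched protein-coding transcripts with an incomplete coding sequence, 2 (KDM4C at 7013788 and ASXL1 at 30959967) transcripts marked for nonsense-mediated decay, and 1 (KDM5C) transcripts without a coding sequence. Of 18 placed exits with a complete v29 protein, that protein, the shortest where there were several, was at least as long as the residues kept in 14 and shorter in 4, in KDM2B, SETDB1, NSD1 and HDAC6. Only the last intron was matched, and where the shorter proteins begin was not compared, so residues kept hold for the chain and the transcript chosen.

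**Figure D2:**
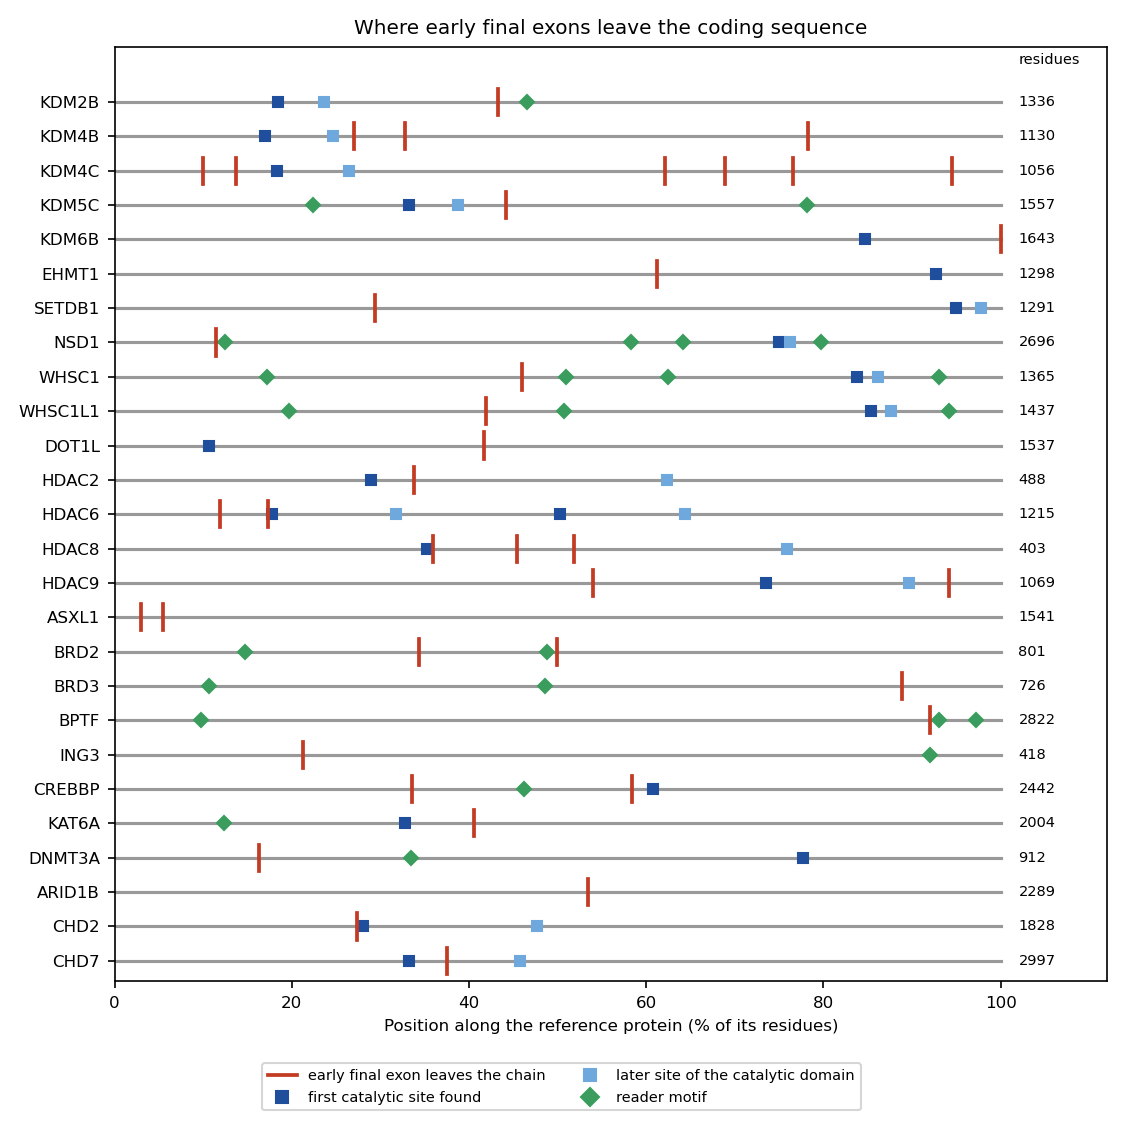
Each grey line is the protein of a GENCODE v29 transcript, scaled to 100% of its residues (total at the right), with red ticks where early final exons leave the chain, dark blue squares for the active-site motif, light blue squares for a later site of the same domain and green diamonds for reader motifs. In EHMT1, SETDB1, NSD1, WHSC1 and WHSC1L1 every red tick lies left of the dark blue square, and in KDM2B, KDM4B and KDM5C every one lies right of both blue squares.

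Among the 12 JmjC demethylases, which remove methyl groups from histone lysines with iron and 2-oxoglutarate, 5 had 2 or more final exons. KDM4C, which acts on methylated H3, had 10, more than any other member, and 9 were early. Its early final exons stopped at 4 ends along the chain. The most upstream pair, chr9:6805930-6815149 and chr9:6814631-6815149, shared 1 end and left after 106 and 145 of 1056 residues, before the JmjC motif at residues 189 to 198 shown above. The next 3, with acceptors at 7012911, 7013788 and 7013792, all ended at 7014337 and kept 656 or 727 residues, past both JmjC sites. Of the remaining 4, chr9:7049092-7077263 kept 808 residues and chr9:7169798-7170932 kept 998. The exons chr9:7076434-7077263 and chr9:7170308-7170932 lay behind introns without a match in the transcript, whose last shared donors stood at residues 808 and 998. GENCODE v29 lists complete proteins of 151 and 1047 residues on transcripts whose last intron is as long as those leading to the exons at 6814631 and 7169798. A further pair of complete proteins, of 813 and 835 residues, goes with the exon at 7076434. The listed ends of KDM4C thus included 1 upstream of the catalytic centre and 3 downstream of it.

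The close paralogue KDM4B had 4 final exons, and all 3 early ones lay past the JmjC motif at residues 188 to 197. They were chr19:5110633-5113351 and chr19:5110693-5113351, with 371 and 306 of 1130 residues kept, and chr19:5137973-5141514, with 884. The patterns found no reader motif in KDM4B or KDM4C, so which readers these exits keep or drop was not determined. KDM4A, the other paralogue on the list, had 1 final exon. KDM2B, which binds unmethylated CpG DNA through a CXXC finger, had 3 final exons and 1 early one, chr12:121931650-121932468. It left after 578 of 1336 residues, past the JmjC site at residues 242 to 252 and before the CXXC finger at residues 613 to 630. The complete v29 protein with that last intron has 507 residues, fewer than the 578 counted along the chain. KDM5C, an X-linked demethylase of the active-promoter mark on H3, had 1 early final exon, chrX:53230462-53230926, with 687 of 1557 residues kept. That point lies past the JmjC motif at residues 513 to 522, after the first PHD finger found and before the next one at residues 1188 to 1247. KDM6B, which removes the Polycomb mark, had its early end at chr17:7756816-7756998 inside exon 23 of the chain, past its whole coding sequence. In all 4 of these members the early ends lay downstream of the catalytic motif, unlike the upstream pair of KDM4C.

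The SET methyltransferases were placed the other way round. SET enzymes transfer methyl groups to histone lysines, and in the members with early ends the domain sits in the C-terminal part. The JmjC motifs of KDM2B, KDM4B, KDM4C and KDM5C sit nearer the N-terminus. Whether an exit falls before or after a motif thus depends on the motif's place as well as on the exit. Of 9 SET members, 5 had 2 or more final exons, and every placed early final exon, 8 in all, left before the SET motif. EHMT1, a writer of a repressive mark on H3, had chr9:140676743-140678845 and chr9:140678558-140678845, both leaving after 794 of 1298 residues with the motif at residue 1200. The v29 transcript with the same last intron as the shorter of these encodes 808 residues. SETDB1, a writer of repressive methylation at repeats, had chr1:150917394-150917796, with 380 of 1291 residues kept and the motif at residue 1223, and complete v29 proteins with that last intron have 249 to 397 residues. NSD1, a writer of a mark of transcribed genes, left earliest. Its exons chr5:176562942-176564405 and chr5:176563874-176564405 kept 309 of 2696 residues, upstream of the PWWP motif at residue 335 and of the SET motif at residue 2020. The v29 protein with the last intron of the shorter exon has only 67 residues.

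WHSC1 (now NSD2) and WHSC1L1 (now NSD3) are paralogues of NSD1. WHSC1 had 4 final exons, of which 3, with acceptors at 1941381, 1943062 and 1944066 on chromosome 4, all ended at 1950546. The first 2 left after 627 of 1365 residues, past the PWWP motif at residue 234 and before the SET motif at residue 1141. The exon at 1944066 follows an intron without a match in the chosen transcript. Complete v29 proteins with the same last introns have 629 residues for the exon at 1941381 and 647 for the one at 1944066. WHSC1L1 had 3 final exons, with early ones at chr8:38177274-38178690, leaving after 603 of 1437 residues, and at chr8:38173936-38175556, which shares its last intron length with v29 transcripts of a 645-residue protein. The latter exon, of 1621 bases, has the same 2 bounds as an internal exon of the chain. The SET motif of WHSC1L1 stands at residue 1223 and its PWWP motif at residue 282. In both genes the early ends therefore lay between the PWWP motif found and the SET motif, whereas those of NSD1 lay before both. A further PWWP domain missed by the pattern would not be marked. EZH1, EZH2, EHMT2 and SETD2 each had 1 final exon, as did EED and SUZ12, the partners of EZH1 and EZH2 in PRC2. DOT1L, whose methyltransferase fold lies at the N-terminus, had the early final exon chr19:2214470-2215866 with 641 of 1537 residues kept, past its catalytic motif at residues 161 to 168.

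Histone deacetylases remove acetyl groups from lysines. HDAC2, HDAC6, HDAC8 and HDAC9 had 2, 3, 7 and 3 final exons, and HDAC1, HDAC3, HDAC4, HDAC5 and HDAC7 had 1 each. HDAC8, on the X chromosome, had 6 early final exons in 2 clusters of ends. Those with acceptors at 71787880 and 71787646 (minus strand) ended at 71787433 or 71787436 in intron 4 and kept 145 of 403 residues. The active-site histidines stand at residues 140 to 144, and the HDAC8 stretch printed above ends 5 bases after them, where the exon ends. A complete v29 protein of 146 residues has the same last intron as the exon at 71787880, and 1 of 158 residues as the exon at 71787646. The other HDAC8 final exons, with acceptors at 71714231, 71710856, 71710850 and 71708891, all ended at 71693267 and kept 183 or 209 residues. The exon at 71787880 was also listed with that distal end, which makes it 94614 bases long. None of these 6 reached the later active-site residues at 304 to 308. HDAC2 had chr6:114277092-114277315, with 165 of 488 residues kept, between the motif at residues 139 to 143 and the later site at residues 302 to 306.

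HDAC6, a cytoplasmic deacetylase with 2 catalytic domains, had early final exons at chrX:48664038-48664262 and chrX:48665016-48665367. They left after 145 and 210 of 1215 residues, both before the first active site at residues 214 to 217 and the second at residues 609 to 612. Complete v29 proteins with the last intron of the first exon have 91 to 146 residues. HDAC9 had chr7:18705836-18708466, with 577 of 1069 residues kept, and chr7:18993769-18993939, with 1007. The active site at residues 784 to 787 lies between the exits. The shorter form ends upstream of the deacetylase domain and the longer one past its later site at residues 957 to 961, and a v29 transcript with the last intron of the longer form encodes 1011 residues.

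ASXL1, a partner of the BAP1 deubiquitinase that removes ubiquitin from histone H2A, had 5 final exons, and 4 of them were early and shared 1 end. Their acceptors at 30954187, 30956818, 30959581 and 30959967 all led to position 30960356 on chromosome 20. The first left after 46 of 1541 residues and the second after 84, and for the other 2 the last donor shared with the transcript was also at residue 84. ASXL2 had a single final exon. Both genes, however, listed an exon that joins exon 2 of the v29 transcript to later exons, after residue 46 in each. In ASXL1 it was chr20:30954187-30955532, which holds 1 v29 intron, and in ASXL2 it was chr2:26029098-26068432, 39335 bases long with 2 v29 introns inside.

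**Figure D3:**
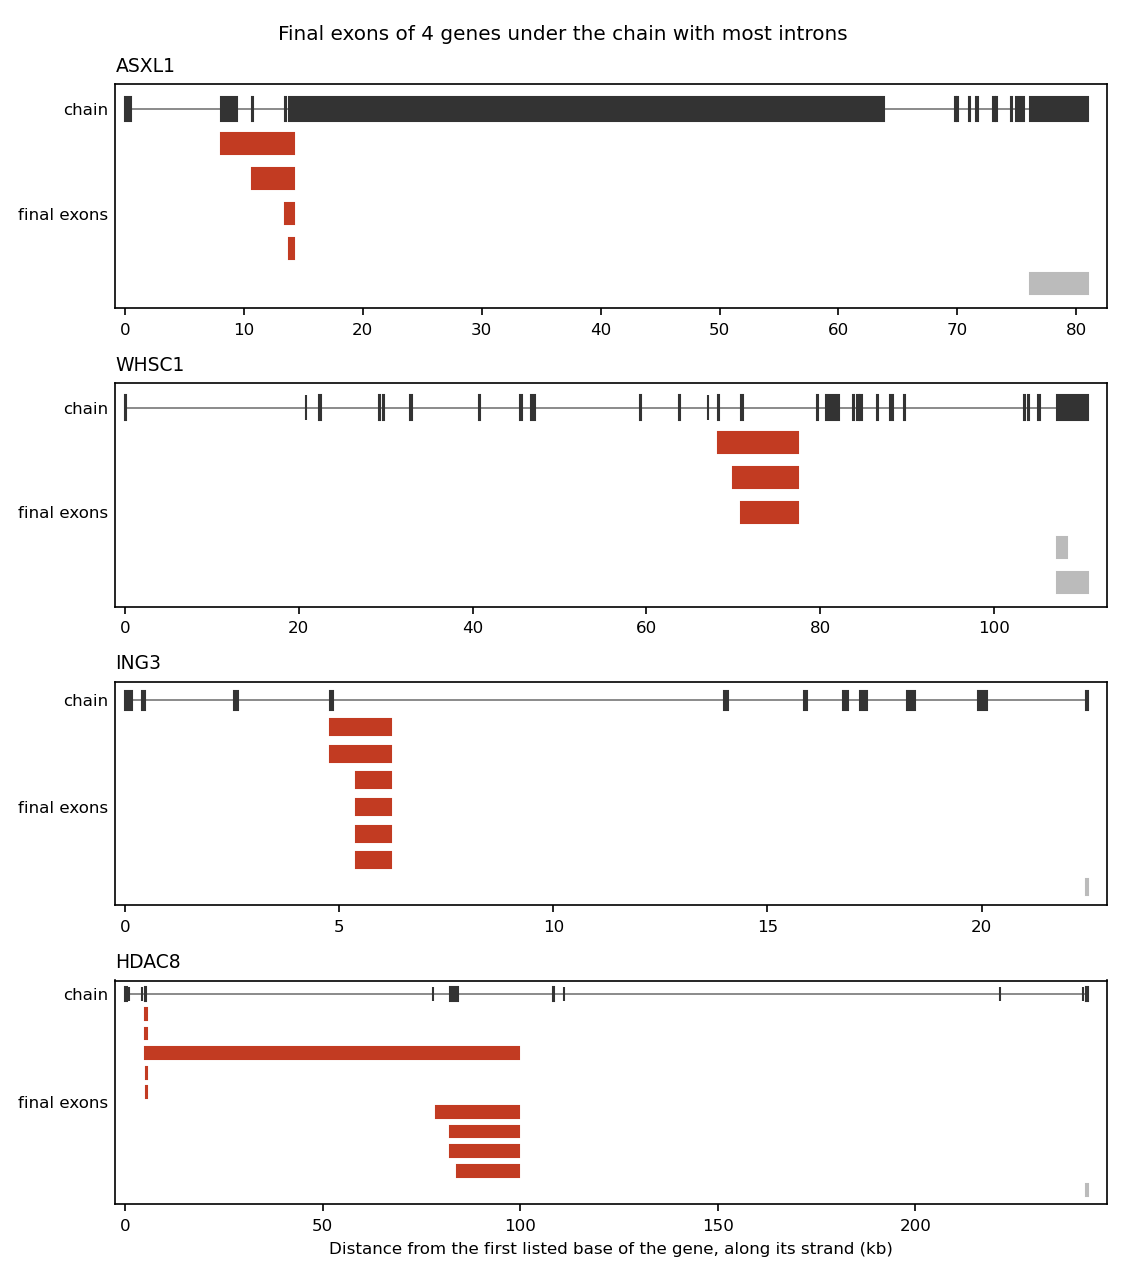
For 4 members the exons of the chain with most introns (black) and all listed final exons below it (red, early; grey, downstream of the last intron) are drawn to scale against distance in kb from the first listed base of the gene. The red boxes of ASXL1 and WHSC1 begin at different acceptors and stop at 1 end each, those of ING3 stop within a few bases of each other, and those of HDAC8 stop in 2 places.

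In some members several acceptors led to 1 early end. The 55 early final exons had 38 distinct ends, and 15 of these (39.5%) were reached from 2 or more acceptors, against 740 of 2816 (26.3%) over all genes. All 4 early ends of KDM4C, all 3 of HDAC8 and the 2 of ING3 were among the 15. Ends a few bases apart were counted separately, and ends of 1 gene are not independent. An extended exon and a separate exon that share an end are also what makes a spanned intron, so these counts overlap with those of the spanned introns.

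Among the readers, BRD2 and BRD3 bind acetylated histones through a pair of bromodomains. BRD2 had chr6:32944027-32944851, leaving after 275 of 801 residues between its bromodomain motifs at residues 113 and 386, and chr6:32944339-32944851, leaving after 400. The second exit lies just past the second motif, at residues 386 to 395. A motif is only 1 point of a bromodomain, so whether the whole second bromodomain is kept was not determined. BRD3 had chr9:136901151-136901446, with 645 of 726 residues kept and both bromodomain motifs upstream. That exon ends only 3 bases past the usual donor, and its intron still counts below as one that holds an early end. BPTF, the large subunit of the NURF remodeler, had 3 final exons and 1 early one, chr17:65955657-65956493. It kept 2597 of 2822 residues, with the bromodomain motif at residue 2740 downstream and a PHD finger, at residues 254 to 295, kept. The exit fell inside a stretch at residues 2588 to 2664 that matched the PHD pattern. That match is longer than the one at residues 254 to 295. Where the finger begins within it, before or after the exit, was not determined. ING3, a subunit of the NuA4 acetyltransferase complex that binds methylated H3 with a C-terminal PHD finger, had 4 final exons and 3 early ones. The acceptors at 120595613, 120596214 and 120596217 on chromosome 7 all led to 120597032 and 120597034. All 3 left after 89 of 418 residues, before the PHD finger at residues 363 to 406, and complete v29 proteins with the same last introns have 99 and 92 residues.

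Of the acetyltransferases, CREBBP had 3 final exons, KAT6A had 2, and EP300 and KAT6B had 1. CREBBP, a coactivator with a bromodomain beside its catalytic core, left at chr16:3823638-3823931 after 821 of 2442 residues, before the bromodomain at residue 1125. Its other early exon, chr16:3789448-3789725, left after 1426, past the bromodomain and before the acetyltransferase motif at residues 1481 to 1488 printed above. Its close paralogue EP300, with 29 introns against 30, had no early final exon. KAT6A had chr8:41799568-41800518, with 812 of 2004 residues kept, past the MYST motif at residue 654, and a v29 transcript with the same last intron encodes 815 residues.

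Of the DNA methyltransferases, DNMT3A, a de novo enzyme, had chr2:25504322-25505580, which left after 149 of 912 residues, before its PWWP motif at residue 304 and its catalytic motif at residues 706 to 711. A complete v29 protein with that last intron has 166 residues. DNMT3B, the other de novo enzyme, and DNMT1, which copies methylation after replication, had 1 final exon each. Among the SWI/SNF genes the ATPases SMARCA2 and SMARCA4 and the DNA-binding subunit ARID1A had 1 final exon, while ARID1B had chr6:157505365-157507754, with 1223 of 2289 residues kept. Among the CHD remodelers, CHD2 left at chr15:93492182-93492464 after 500 of 1828 residues, just before the ATP-binding loop at residues 509 to 516, and complete v29 proteins with that last intron have 501 to 514 residues. CHD7 left at chr8:61736399-61737974 after 1126 of 2997 residues, past the loop at residues 993 to 1000 and before the helicase site at residues 1367 to 1374. CHD4 had 2 final exons whose acceptors lay within 10 bases of each other, neither of them early, and CHD1 and CHD8 had 1.

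A spanned intron is one spliced out in 1 isoform that lies inside a single listed exon with the same outer ends. The members had 14, in 9 genes. KDM4C had 1 of 27233 bases (chr9:7049201-7076433, after residue 808) and 1 of 417 bases (chr9:7169891-7170307, after residue 998). ASXL1 had 3 in a row, of 1285, 2654 and 289 bases, beginning at 30955533, 30956927 and 30959678. WHSC1 had 1556 and 2560 bases and ING3 535 and 538 bases, each pair sharing its donor edge (1941506 and 120595679). EHMT1 had chr9:140676850-140678557 (1708 bases), NSD1 chr5:176563032-176563873 (842 bases), HDAC8 chrX:71787647-71787738 (92 bases), BRD2 chr6:32944242-32944338 (97 bases) and BPTF chr17:65972075-65977551 (5477 bases). The BPTF intron was the last of 31 and followed residue 2810 of 2822, whereas in the other 8 genes the exon that spans the intron was an early final exon.

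The introns that hold an early end were long for their gene. Across 24 members their median length was 4280 bases (31 introns), against 1535 bases for the other 526 introns of the same chains, with spanned introns left out. They were longer than the gene's other introns in 19 of 24 members, with a median log2 ratio of 1.62 (SD 1.54, n = 24 genes), or 3.07-fold. The ratio ran from -0.71 in KDM4C to 4.65 in KDM2B, where the holding intron had 41234 bases. NSD1 followed with an intron of 55853 bases, and in KDM2B, NSD1 and ING3 it was the longest of the gene. No test was made of this difference. An end can lie inside an intron only if the intron is long enough to reach it, so the definition itself favours long introns. Along the chain, from 0 at its first intron to 1 at its last, the median place of these introns was 0.520.

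**Figure D4:**
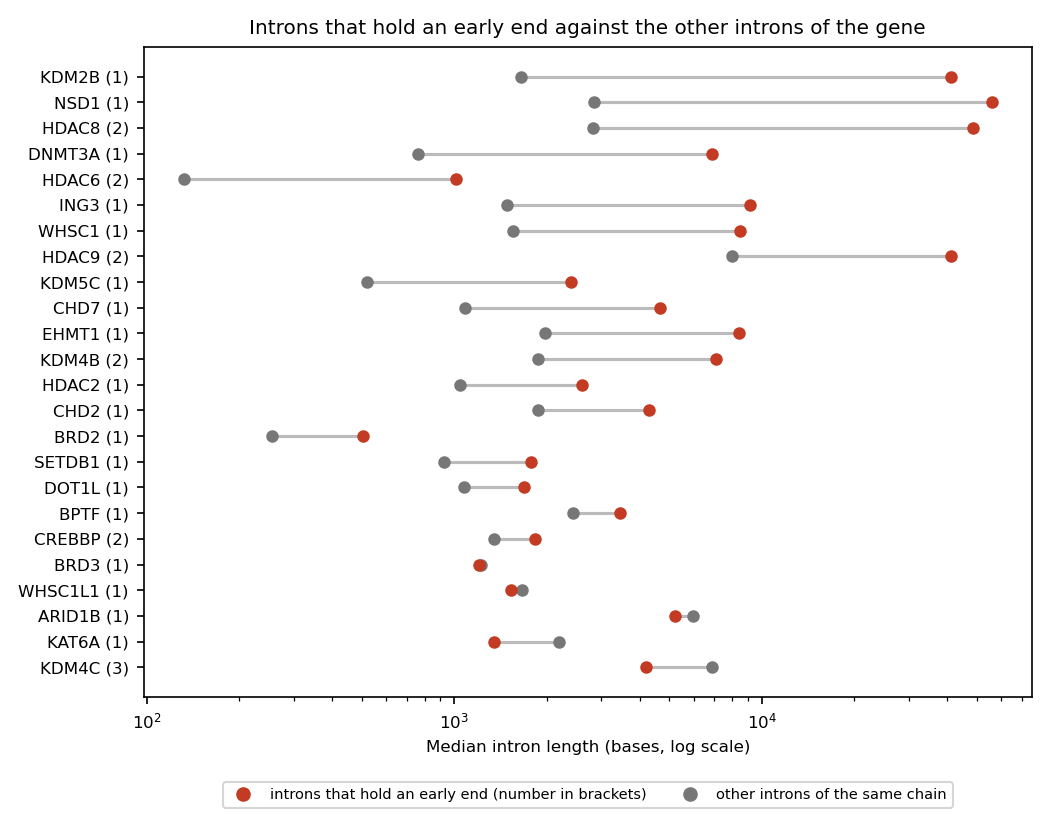
For each of 24 members the median length in bases (log scale) of introns that hold an early end (red, their number in brackets) is joined to that of the other introns of the same chain, without spanned ones (grey). Red lies right of grey in 19 members, and KDM2B, NSD1 and HDAC8 have the widest gaps.

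Some listed exons of the members were themselves long enough to hold introns of the reference. An internal exon as long as consecutive v29 exons with their introns was listed for 7 members (12.5%), against 10.1% of all genes compared. In KDM4C the exon chr9:6849507-6880061 joins v29 exons 5 and 6 across an intron of 30311 bases after residue 209, which lies between the JmjC motif and the later site of the same domain at residues 278 to 282. In HDAC8, chrX:71708783-71710856 joins exons 6 and 7 after residue 209, inside the deacetylase domain. HDAC6 joined exons 13 and 14 across 68 bases, EZH1 exons 13 and 14 across 929 bases and CHD8 exons 21 and 22 across 443 bases. Apart from these, ASXL1 listed an internal exon of 49993 bases (the long black box in the drawing), HDAC9 one of 13185 bases and KDM4B one of 7125 bases. Residue counts given above for exits downstream of such exons take the reference splicing through them.

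The 29 members with a single final exon included some of the largest genes. Among the JmjC demethylases, KDM5A had most introns (29), and KDM6A had the longest intron (87295 bases) and span (237071 bases). Among SET enzymes these were EHMT2, with 28 introns, and SETD2, with a longest intron of 37192 bases and a span of 147548. SUZ12 had the most introns and the longest intron and span of the PRC2 pair. HDAC5 and HDAC7 had 26 introns, HDAC5 the longest intron (16894 bases) and HDAC4 the longest span (108605 bases) of the single-ended deacetylases. EP300 had 29 introns, and KAT6B, a paralogue of KAT6A, an intron of 116491 bases and a span of 206209. DNMT1 had 40 introns and a span of 61733 bases, and DNMT3B a longest intron of 17618 bases. SMARCA4 had 36 introns, SMARCA2 a longest intron of 35876 bases, ARID1A 18 introns, CHD8 38 introns and CHD1 a longest intron of 21235 bases. KDM1A, a flavin-dependent demethylase, had 19. KDM2A, KDM3A, KDM3B, KDM4A, KDM5B, EZH1, EZH2, EED, HDAC1, HDAC3 and ASXL2 made up the rest. A long intron or a long chain was thus also present in genes listed with 1 end.

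For comparison, 160 of 178 other chromatin genes on a hand-written list were present, 157 with introns. Of these 45 (28.7%) had 2 or more final exons and 8 (5.10%) a spanned intron, closer to the figures for all genes than the 56 members were. This list was not matched to the members in intron number, with which the shares over all genes rose. It includes genes with as few as 1 intron (ING2), against at least 9 in the members. PHF8, a JmjC demethylase, had 5 final exons and 2 spanned introns. BRWD1, DPY30, ING5 and JMJD1C, the first by name of 15 genes with 3 final exons, followed it. Besides PHF8, a spanned intron was listed for ING5, L3MBTL1, PHF19, SETD3, SMYD3, SUV420H1 and UHRF2, 1 in each.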

How the data were processed

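Poly(A)-selected RNA of 6 libraries was sequenced, per the labels' protocols. The 1 file analysed here, an exon annotation that the authors deposited for both groups together, gives start and end positions in bases and no values per library. Per the submitters' processing notes the builds were hg19 and GRCh37 and the tools, with no role stated, were RSEM, the aligners STAR (2.4.1d) and Bowtie (1.0.1), the interval tool bedtools (2.20.1) and the count tester DESeq (1.10.1). The title of the annotation names DI and consensus coding isoforms, and the sources used here do not say how either were called.

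Of 382567 rows, 76 with the end before the start were dropped. Consecutive rows of 1 label were read as isoforms (31659 in all), and of overlapping consecutive exons (10093), mostly an exon followed by its own extension, the later was kept. Chains were matched by intron lengths, never by position, to GENCODE v29 transcripts (GRCh38). Proteins came from translating those transcripts, in place of RefSeq proteins, and motifs were searched as fixed residue patterns. Of each member, the complete protein-coding transcript with most matching introns was used. A motif missed by these patterns is not marked.

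Python 3.11.15, Biopython 1.88 and matplotlib 3.10.9 were used.

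Members and lists were chosen with earlier results of these data known. Named genes followed a rule: every member with 2 or more final exons or a spanned intron, in each class the single-ended members with most introns, the longest intron and the longest span, and of the other chromatin genes the 5 with most final exons and those with a spanned intron. No test was run, since samples cannot be told apart. Tables of expression that the labels name were not analysed here.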

Additional observations from a re-analysis of the deposited data

How the results depend on the processing

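No paired analysis was possible because the annotation has no columns of libraries. The count of members with 2 or more final exons, 27, became 15 with 3 or more required and 1 within the first numbered group of each gene, since the groups mostly hold 1 final exon each. It was 34 with final exons told apart by acceptor and end, 27 with the earlier of overlapping exons kept, and 26 with acceptors within 10 bases merged, an alternative chosen after seeing the data. Members with a spanned intron were 9, and 6 with the earlier exon kept, when KDM4C, ASXL1 and BRD2 had none. Members with an early final exon were 26, and 24 with 3 or more introns required downstream. With the longest coding transcript 17 of 38 placed exits preceded the active-site motif, against 17 of 39. The median log2 intron length ratio was 1.72 with first introns left out. Depth behind each isoform is unknown.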
